A study of Mus musculus with 288 samples.

Results

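The Slc22 and Slco genes encode the organic ion transporters, the membrane proteins that carry charged drugs, toxins, hormones and metabolites into cells. Every gene of the array with 1 symbol of the form Slc22a plus a number, or Slco plus a number, letter and number, was taken, which gave 37 genes of 19938 measured, 22 of them Slc22 and 15 Slco. By role they were 1 organic cation transporter (Slc22a2), 5 carriers of carnitine and other zwitterions (Slc22a4, Slc22a5, Slc22a15, Slc22a16 and Slc22a21), 12 organic anion transporters, 4 Slc22 orphans (Slc22a14, Slc22a17, Slc22a18 and Slc22a23), 6 Slco1 genes, 2 Slco2 genes, 4 genes of Slco3 to Slco5 and 3 Slco6 genes. Each was read by 1 probe set. RefSeq lists Slco6b1 as a long non-coding RNA and the other members as protein-coding, and Slco6b1 is counted with the transporters by its symbol.

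The arrays come from an atlas of daily expression in 12 tissues of C57/BL6 mice, with no age in the labels: kidney, liver, lung, heart, skeletal muscle and aorta, brown and white fat (brown adipose, white adipose), the adrenal gland, and the brain regions brainstem, cerebellum and hypothalamus. The animals lived for 1 week in 12 h of light and 12 h of dark and then in constant darkness, and no group was treated or genetically altered in the labels. Samples were taken at 2 h steps between circadian times CT18 and CT64, CT0 marking subjective dawn. Each of the 24 arrays of a tissue held RNA pooled from 3 mice. No time had a second pool, so a p-value here reflects how far single pools scatter about the fitted curve, and n = 24 arrays holds for every value of a tissue.

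Slc22 proteins sit mostly in epithelia, where kidney tubule cells use them to take organic cations and anions from the blood for secretion into urine or to recover urate and carnitine from it. Slco proteins, the organic anion transporting polypeptides, carry bile acids, steroid conjugates, thyroid hormones, prostaglandins and many drugs, and several serve uptake into hepatocytes or passage across the blood-brain barrier. Circadian clocks act on transcription through short promoter elements: the E-box bound by CLOCK and BMAL1, the D-box bound by DBP, TEF, HLF and NFIL3, and the RORE bound by the ROR and REV-ERB receptors.

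The 250 bases before the start site are shown for the 2 genes with the largest daily waves in kidney (Slc22a4 and Slco2b1) and the 2 in liver (Slc22a15 and Slco1a4), because these are the genes whose timing the results below turn on. They are RefSeq sequences of mouse build GRCm38.p6, written 5′ to 3′ on the gene's own strand in lower case, with any match to 1 of 3 motifs in capitals: the E-box CACGTG, the D-box TTANGTAA and the RORE TAGGTCA, each searched on both strands. The entry of Slc22a4 starts 1936 bases and that of Slc22a15 3767 bases inside the annotated gene.
Slc22a4 (chr11:54028105-54028354, minus strand): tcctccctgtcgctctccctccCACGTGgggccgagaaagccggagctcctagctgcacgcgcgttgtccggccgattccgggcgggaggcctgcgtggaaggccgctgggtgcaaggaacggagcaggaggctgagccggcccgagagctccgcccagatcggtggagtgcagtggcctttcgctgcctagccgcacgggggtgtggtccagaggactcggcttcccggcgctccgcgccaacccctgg
Slco2b1 (chr7:99711341-99711590, minus strand): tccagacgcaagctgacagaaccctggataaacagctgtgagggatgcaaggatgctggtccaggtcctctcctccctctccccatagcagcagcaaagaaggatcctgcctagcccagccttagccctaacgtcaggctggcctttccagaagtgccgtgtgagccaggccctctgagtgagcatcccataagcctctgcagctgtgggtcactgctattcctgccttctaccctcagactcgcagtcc
Slc22a15 (chr3:101924454-101924703, minus strand): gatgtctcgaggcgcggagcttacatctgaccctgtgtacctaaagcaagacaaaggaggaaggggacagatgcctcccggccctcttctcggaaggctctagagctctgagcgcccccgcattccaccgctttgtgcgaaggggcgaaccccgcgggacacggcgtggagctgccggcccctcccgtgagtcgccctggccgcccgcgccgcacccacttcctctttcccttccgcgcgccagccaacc
Slco1a4 (chr6:141856221-141856470, minus strand): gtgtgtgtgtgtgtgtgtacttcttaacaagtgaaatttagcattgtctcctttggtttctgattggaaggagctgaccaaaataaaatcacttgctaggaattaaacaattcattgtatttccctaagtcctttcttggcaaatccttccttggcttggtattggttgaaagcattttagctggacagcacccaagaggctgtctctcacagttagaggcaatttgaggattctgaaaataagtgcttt
Among these windows the Slc22a4 one held a match, an E-box. Over the family, 33 genes had 38 promoter entries. The E-box was found in 2 of those entries (Slc22a16 and Slc22a4), the D-box in 1 (Slc22a20) and the RORE in 1 (Slco1a1), against 6.02%, 2.06% and 2.23% of all 32851 promoters of this length. A match is a string of letters and not a bound site.

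Array medians lay between 95.2 and 106.6 intensity units. Hepatocyte markers were highest in liver (mean 13.47 ± 0.03 log2, SD, 12 of 12 genes measured) and kidney tubule markers in kidney (12.25 ± 0.02, 12 of 12). Some arrays stood apart and carried markers of a neighbouring organ, and the transporters of that organ were raised on them. On the adrenal array of CT50 the hepatocyte mean was 12.30 against an adrenal median of 9.37. Slco1b2, the bile acid and statin carrier of hepatocytes, read 10.35 there against an adrenal median of 6.44. On the heart array of CT26 the hepatocyte mean was 10.46 against a heart median of 6.22, and Slco1b2 read 6.21 against 4.94. In white adipose the median of the hepatocyte mean was 8.83. Raised hepatocyte markers in adrenal gland and white adipose were thus not confined to arrays that stood apart. White adipose at CT22 had a lung epithelium mean of 10.68 and its highest Slco2a1 (10.60), and at CT32 a kidney tubule mean of 7.61 and its highest Slc22a6, Slc22a8, Slc22a12 and Slc22a2. The part of this other RNA in the levels below was not tested.

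Kidney held the highest level of 14 transporters and liver of 10, lung and cerebellum of 3 each, brown adipose of 2, and skeletal muscle, hypothalamus, brainstem, aorta and adrenal gland of 1 each. In 24 of the 37 genes all 24 arrays of the top tissue lay above all arrays of the next one, among them all 14 kidney genes. The share of all genes with such a gap is not given, so these counts are not read as a trait of the family. Levels are means of log2 intensity ± SD over the 24 arrays. They are compared between tissues for the same probe set alone, and since the values appear to have been normalized in each tissue apart, with no test. In bulk tissue, fewer cells of a type and less RNA per cell cannot be told apart. After a common quantile normalization of all arrays the top tissue was the same in 33 of 37 genes.

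**Figure D1:**
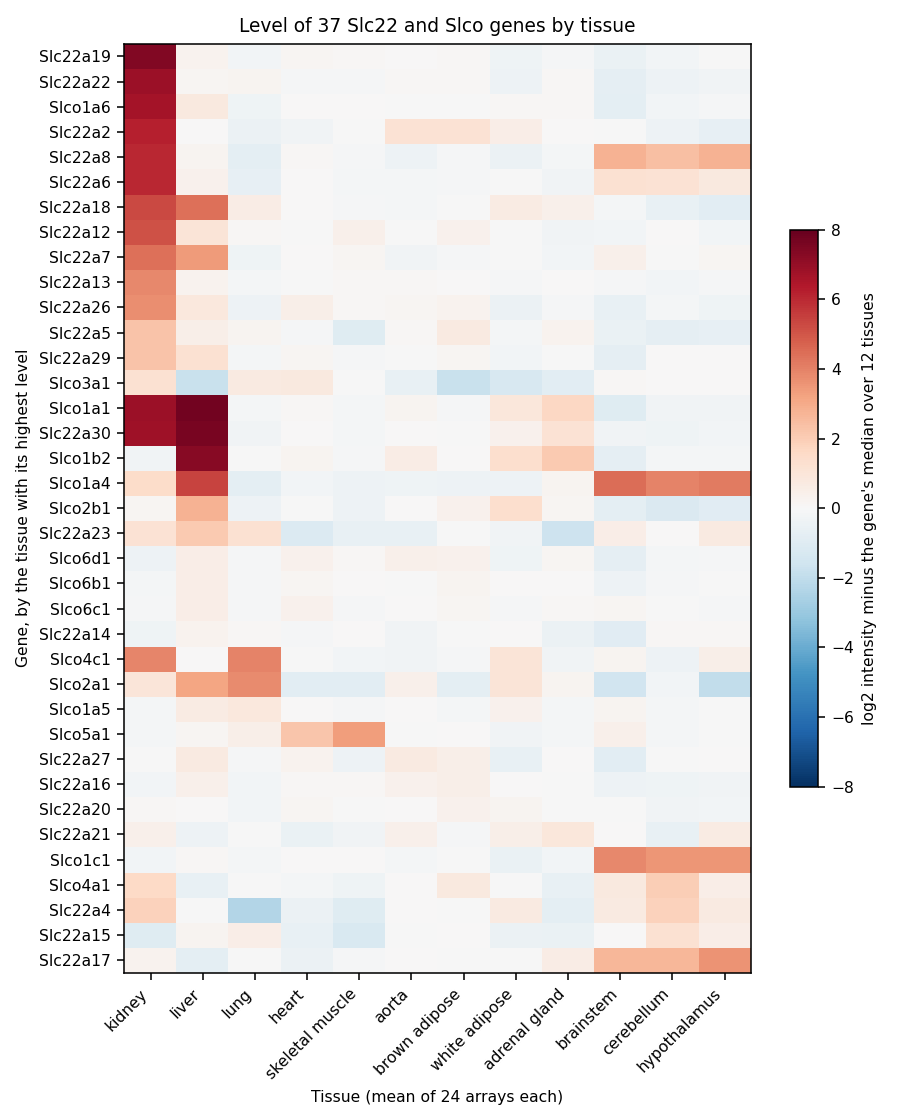
Level of each of the 37 genes (vertical axis) in each of the 12 tissues (horizontal axis), as the mean log2 intensity of 24 arrays minus the median of that gene's 12 tissue means, on a colour scale from -8 to 8 with red above and blue below. The block of dark red at the top left is the set of genes highest in kidney, and Slco1a1 and Slc22a30 are dark in kidney and liver alike.

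The kidney group held the secretory transporters of the proximal tubule. Slc22a19, an organic anion transporter of the tubule, stood farthest above its median over the 12 tissues. Its lowest, median and highest kidney values were 11.61, 11.87 and 12.06, while liver, the next tissue, stood at 4.77 ± 0.06. Slc22a2, the organic cation transporter OCT2, stood at 12.16 ± 0.06 in kidney and 7.09 ± 0.20 in brown adipose. Slc22a6 (OAT1) and Slc22a8 (OAT3), which take organic anions such as drugs and p-aminohippurate from the blood, stood at 11.88 ± 0.06 and 12.16 ± 0.06. All of these kidney arrays were far above those of any other organ. The brain came next for both anion transporters, with 7.06 ± 0.16 for Slc22a6 in brainstem and 8.91 ± 0.22 for Slc22a8 in hypothalamus. Slc22a22, a prostaglandin carrier, stood at 11.61 ± 0.05 in kidney against 4.97 ± 0.10 in lung, and Slco1a6 at 11.58 ± 0.08 against 5.66 ± 0.14 in liver. The urate exchanger Slc22a12 (URAT1) stood 4.05 log2 units and Slc22a13 (OAT10) 3.60 above liver. The carnitine carrier Slc22a5 (OCTN2) was at 10.60 ± 0.12 in kidney and above the median of all genes in each of the 12 tissues.

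In liver the Slco1 genes stood out. Slco1a1, an uptake carrier of steroid sulfates and bile acids, had a lowest, median and highest liver value of 12.13, 12.26 and 12.45. Kidney followed at 11.37 ± 0.15, and no kidney array reached the lowest liver array. The kidney minus liver difference of -0.90 was -0.19 after quantile normalization, and that of Slc22a30 went from -0.81 to -0.12. Slco1b2 stood at 12.08 ± 0.14 in liver and 4.54 ± 0.12 in kidney, and its second tissue was the adrenal gland with 6.93 ± 1.53, the widest spread of any top or second tissue. Its adrenal values ran from 5.33 to 10.35, and the highest of them is the CT50 array named above. Slco1a4, a carrier of digoxin and bile acids that also lies in brain capillaries, stood at 10.67 ± 0.38 in liver, 9.71 ± 0.10 in brainstem, 9.40 ± 0.14 in hypothalamus and 9.26 ± 0.09 in cerebellum. It was the family member farthest above its own median in all 3 brain regions. Slco2b1, a carrier of steroid sulfates, was at 10.75 ± 0.12 in liver and next at 9.30 ± 0.23 in white adipose.

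Compared directly, 19 of the 37 genes had every kidney array above every liver array, where 15% of all genes did, and 17 had every kidney array below, where 38.4% did. Slc22a20, an olfactory organic anion transporter, was the gene that overlapped. The first count is above its background and the second close to it. After quantile normalization the counts were 19 (background 21.1%) and 7 (background 21.2%). This normalization moved the median kidney minus liver difference of all genes from -0.29 to -0.03. The differences ran from -7.54 for Slco1b2 and -3.96 for Slco1a4 to 6.67 for Slc22a22 and 7.07 for Slc22a19.

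Outside kidney and liver, 4 transporters had a top tissue with no overlap, a count given without its background. Slco2a1, the prostaglandin transporter, stood at 11.66 ± 0.08 in lung and 11.03 ± 0.19 in liver. Slco5a1, an orphan member, stood at 8.84 ± 0.16 in skeletal muscle and 7.69 ± 0.17 in heart, the tissue in which it was also the member farthest above its own median. Slc22a17, a receptor for lipocalin-2, stood at 11.44 ± 0.08 in hypothalamus, with brainstem at 10.46 ± 0.04 and cerebellum at 10.46 ± 0.07. Slc22a15 stood at 8.73 ± 0.07 in cerebellum and 8.04 ± 0.09 in hypothalamus. The member farthest from its own median was Slc22a2 in aorta (7.05 ± 0.17), Slco2b1 in white adipose and, below it, Slco3a1 in brown adipose (7.95 ± 0.14). Slco1c1, the thyroxine carrier of brain capillaries, was high in all 3 brain regions, at 9.08 ± 0.09 in brainstem, 8.80 ± 0.09 in hypothalamus and 8.80 ± 0.10 in cerebellum, with overlapping arrays, and at most 5.36 elsewhere. The arrays of the top 2 organs also overlapped in Slco4c1, Slc22a4 and Slco4a1, among others. Slco4c1, a renal carrier of digoxin and thyroid hormone, stood at 8.90 ± 0.16 in lung and 8.86 ± 0.11 in kidney. Slc22a4, the ergothioneine carrier OCTN1, stood at 9.84 ± 0.05 in cerebellum and 9.79 ± 0.16 in kidney. Slco4a1, a carrier of thyroid hormones, stood at 8.47 ± 0.10 in cerebellum and 8.10 ± 0.17 in kidney.

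The other end of the family was dim. In all 12 tissues the mean of 9 genes lay below the median of all genes: Slc22a14, Slc22a16, Slc22a20, Slc22a27, Slc22a29, Slco1a5 and the 3 Slco6 genes, several of which are known from testis or olfactory epithelium, neither of which was sampled. Slc22a29 came nearest to that median, at 6.90 ± 0.12 in kidney. Slco1a5 had its highest array in white adipose at CT40, 10.30 against a white adipose median of 4.93, and the next there at CT64 with 6.46. Any wave given below for these 9 genes is that of a dim probe set. The genes Slc22a26, Slc22a27, Slc22a29 and Slc22a30 lie on chromosome 19 and are close relatives, as are the Slco1a genes on chromosome 6, so a probe set of 1 may read RNA of another.

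A wave with a period of 24 h was fitted to the 24 arrays of each tissue with limma, its size given as the fitted peak-to-trough fold and its time as the fitted peak, and it was called where the Benjamini-Hochberg adjusted p over all 19938 genes was under 0.05. In kidney 12 of 37 transporters had a called wave, where 25.8% of all genes did. In liver 11 did, where 26.8% of all genes did. The counts of the other tissues were 6 in lung (background 20.9%), 6 in brown adipose (16.5%), 5 in brainstem (4.78%), 3 in heart (8.64%), 2 in aorta (5.09%), 2 in cerebellum (5.49%), 1 in skeletal muscle (5.12%) and 1 in white adipose (4.85%). Together the 10 tissues other than kidney and liver gave 26 calls of 370, against 7.91% of all gene and tissue pairs. The brainstem share was above its background in this fit. Under the other settings on both days the brainstem count ran from 0 with normal scores to 5, and was 2 with a line over time. The shares of kidney (32.4%) and liver (29.7%) were near their backgrounds, and the rest were near or below. In adrenal gland (background 5.89%) and hypothalamus (1.8%) limma called 0 transporters. At an unadjusted p under 0.05 there were 11 in the adrenal gland and 5 in the hypothalamus. With array weights the adrenal count was 8, without the arrays that stand apart it was 1 and with the other settings 0. The hypothalamus count was 0 under every setting tried. The unadjusted counts and those of other settings come without their shares over all genes, so they are not read as a trait of the transporters.

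**Figure D2:**
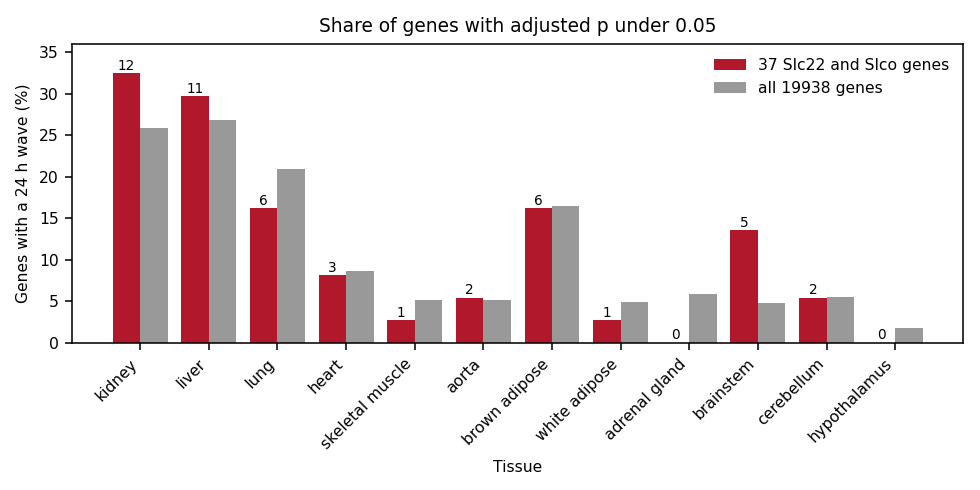
Share of genes with a called 24 h wave (vertical axis, percent) in each tissue (horizontal axis), red for the 37 transporters with their number printed above and grey for all 19938 genes. The red bar stands farthest above the grey one in brainstem (5 genes, and 0 with normal scores). It is at 32.4% against 25.8% in kidney (12) and 29.7% against 26.8% in liver (11), shares near the background. It is close to the grey bar in brown adipose (6), aorta (2), cerebellum (2) and heart (3).

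Over the 12 tissues 24 transporters had a called wave in at least 1 tissue (background 58.9%), 15 in at least 2 (33.8%), 5 in at least 3 (18.1%) and 2 in at least 4 (9.59%). Of the 444 gene and tissue pairs 49 were called, against 11% of all such pairs. In each of the 49 the peaks fitted to the first and the second day apart lay within 4 h of each other. The 49 were called on both days together, so this follows in part from their selection, and its share over all called genes is not given. On the first day alone 16 of them were called, and on the second 17.

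In kidney 3 of the 5 carriers of carnitine and zwitterions had a called wave, with peaks between CT6.92 and CT10.6. These genes, Slc22a4, Slc22a5 and Slc22a21, lie close together on chromosome 11 (GRCm38.p6, chr11:53864542-54030040). Slc22a4 ran from 9.56 at CT46 to 10.04 at CT54, with a median of 9.81. Its lowest arrays fell at CT20 to CT24 and CT44 to CT48 and its highest at CT32, CT36 and CT54 to CT60, and the 6 arrays within 3 h of the fitted peak all lay above the 6 near the trough. The wave was 1.33-fold (95% interval 1.27 to 1.39) with a peak at CT9.72 ± 0.308 h and a limma adjusted p of 1.43e-09. Slc22a5 ran from 10.36 at CT24 to 10.78 at CT60, with a median of 10.61, again with no overlap between arrays near peak and trough, and its wave was 1.18-fold (95% interval 1.11 to 1.26) with a peak at CT10.6 ± 0.711 h and a limma adjusted p of 0.000714. Slc22a21, the carnitine carrier Octn3, ran from 6.48 at CT22 to 6.98 at CT28, with a median of 6.70, and its arrays near peak and trough overlapped. The wave was 1.18-fold (95% interval 1.07 to 1.29) with a peak at CT6.92 ± 1.11 h and a limma adjusted p of 0.0326.

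Both Slco2 genes also cycled in kidney. Slco2b1 ran from 7.74 at CT26 to 8.31 at CT38, with a median of 8.12. It was lowest at CT26 to CT32 and CT50 to CT52 and highest at CT36 to CT42 and CT60 to CT64, without overlap of peak and trough arrays, a wave of 1.32-fold (95% interval 1.24 to 1.42) with a peak at CT15.4 ± 0.441 h and a limma adjusted p of 9.40e-07. Slco2a1 ran from 8.51 at CT24 to 9.07 at CT34, with a median of 8.85, with overlap, a wave of 1.16-fold (95% interval 1.08 to 1.24) with a peak at CT12.1 ± 0.932 h and a limma adjusted p of 0.00952. Slco3a1, a carrier of prostaglandins and thyroxine, ran from 10.82 at CT52 to 11.08 at CT38, with a median of 10.93. Its wave was 1.12-fold (95% interval 1.08 to 1.17) with a peak at CT14.1 ± 0.605 h and a limma adjusted p of 0.000103, and arrays near peak and trough overlapped.

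The organic anion transporters of the tubule moved by small amounts. Slc22a30 ran from 11.03 at CT44 to 11.29 at CT32, with a median of 11.20. Its highest arrays fell at CT24 to CT34 and CT50 and its lowest at CT18, CT44 to CT46 and CT60 to CT64, without overlap of the arrays near peak and trough, a wave of 1.12-fold (95% interval 1.07 to 1.18) with a peak at CT5.5 ± 0.794 h and a limma adjusted p of 0.00229. The secretory pair followed with 1.1-fold for Slc22a8 at CT12.6 (adjusted p = 0.000635) and 1.08-fold for Slc22a6 at CT8.72 (adjusted p = 0.00229). Slco1a6 had 1.1-fold at CT15.8 and Slc22a22 1.06-fold at CT13.9, the smallest wave of the family that was called in kidney. Slc22a14, a transporter of sperm, was read at a low level, from 4.68 at CT48 to 5.07 at CT54, with a median of 4.91, and had a wave of 1.13-fold (95% interval 1.06 to 1.21) with a peak at CT11.0 ± 1.01 h and a limma adjusted p of 0.0179. Of the high kidney genes, Slc22a2 (1.0-fold, adjusted p = 0.989), Slc22a19 (1.09-fold, 0.177) and Slc22a12 (1.08-fold, 0.0671) did not pass.

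The 12 kidney peaks lay between CT5.5 and CT15.8, and the median fold of the called transporters was 1.13 against 1.16 for all called kidney genes. Adipocyte markers also moved in kidney. Their mean (8 of 8 genes measured) ran from 7.58 to 8.71, a fitted 1.59-fold with a peak at CT16.0, near the peaks of Slco1a6 (CT15.8) and Slco2b1 (CT15.4). With that mean as a covariate, 9 of the 12 waves were still called, Slco2b1 at 1.32-fold (adjusted p = 0.00057). Slc22a21 (0.128), Slc22a22 (0.0968) and Slc22a30 (0.13) were not. Without the array of CT54, which had raised pancreas markers, Slc22a21 was no longer called (adjusted p = 0.0775).

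**Figure D3:**
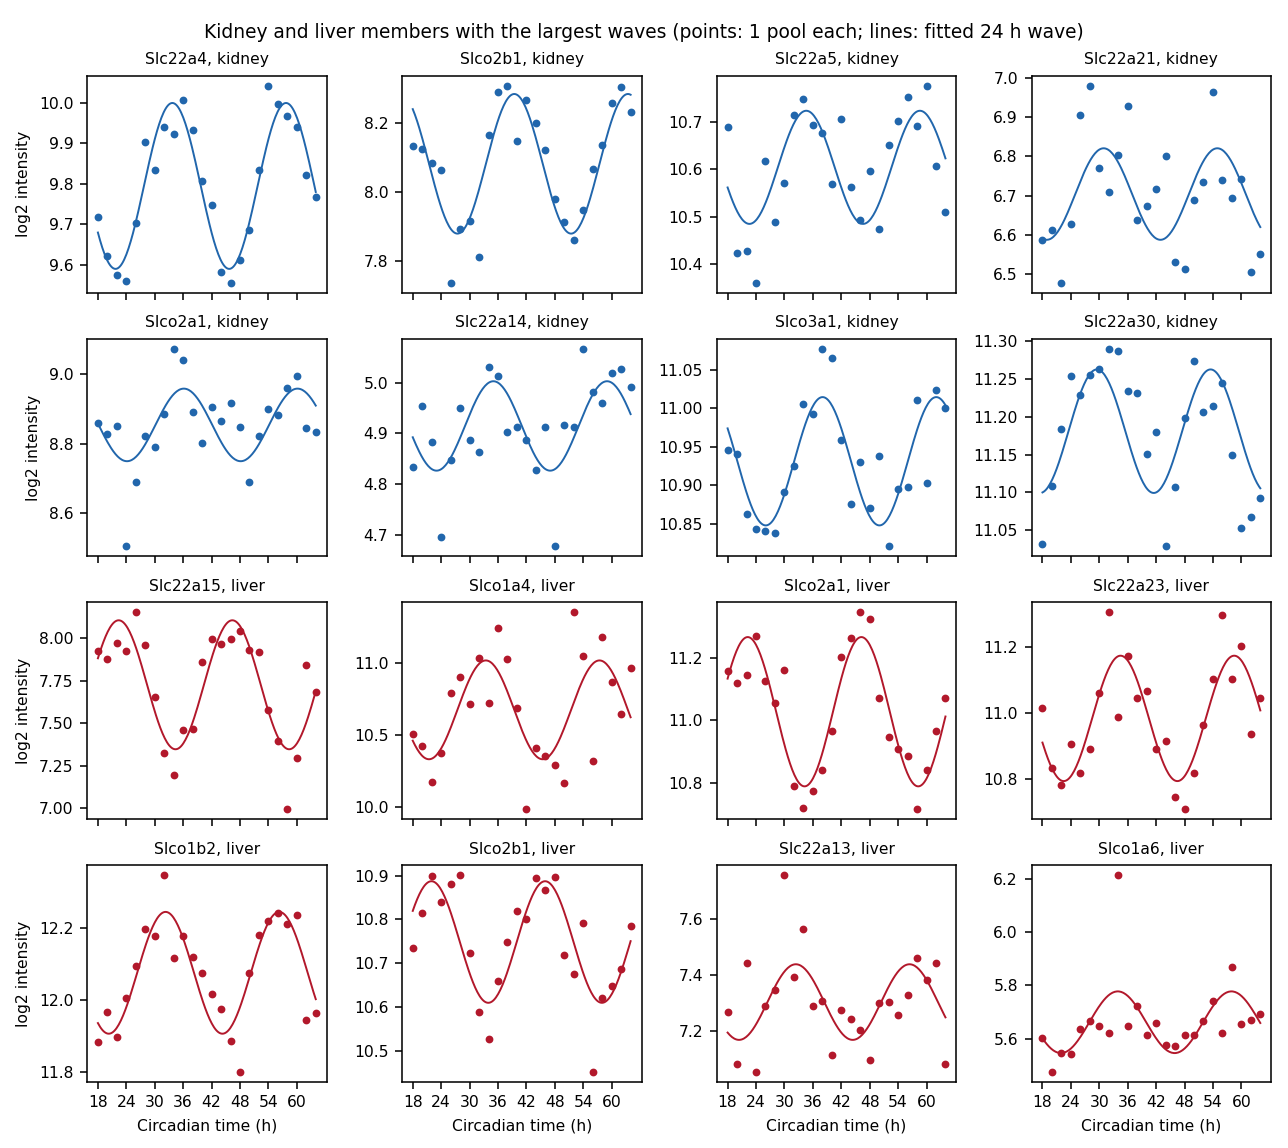
Log2 intensity (vertical axes) against circadian time in hours (horizontal axes) for the 8 called transporters with the largest waves in kidney (blue) and in liver (red). Points are single pools and lines the fitted 24 h waves; kidney genes peak between CT5.5 and CT15.4, and the liver panels fall into genes that peak between CT8.29 and CT10.5 and genes that peak near CT22.

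The called liver transporters are described as an early and a late set by peak time. Peaks of 6 genes lay between CT8.29 and CT10.5, when the mice rest, and those of 5 between CT18.2 and CT22.4. Of all 5343 called liver genes, 39.2% peaked between CT0 and CT12. With 11 called transporters the split is not read as a trait of the family. The early set held 3 Slco1 genes and the late set both Slco2 genes. Slco1a4 ran from 9.98 at CT42 to 11.35 at CT52, with a median of 10.70. Its values were scattered, lowest at CT42, CT50 and CT22 and highest at CT52, CT36 and CT58, and peak and trough arrays overlapped. The wave was 1.61-fold (95% interval 1.29 to 2.02) with a peak at CT9.43 ± 0.874 h and a limma adjusted p of 0.00551. Slco1b2 ran from 11.80 at CT48 to 12.35 at CT32, with a median of 12.09. It was highest at CT28, CT32 and CT54 to CT60 and lowest at CT18, CT22, CT46 to CT48 and CT62 to CT64, with no overlap of peak and trough arrays, a wave of 1.26-fold (95% interval 1.19 to 1.34) with a peak at CT8.29 ± 0.469 h and a limma adjusted p of 3.59e-06. Slco1a6, at a low level in liver, ran from 5.48 at CT20 to 6.21 at CT34, with a median of 5.64, a wave of 1.17-fold (95% interval 1.07 to 1.29) with a peak at CT9.91 ± 1.07 h and a limma adjusted p of 0.0268. Its highest arrays were those of CT34 and CT58 and its lowest those of CT20 and CT24, and peak and trough arrays did not overlap.

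Slc22a23, an orphan, ran from 10.71 at CT48 to 11.30 at CT32, with a median of 10.97. Peak and trough arrays did not overlap, and the wave was 1.3-fold (95% interval 1.21 to 1.4) with a peak at CT10.5 ± 0.532 h and a limma adjusted p of 2.11e-05. Slc22a13, an exchanger of nicotinate and urate, ran from 7.05 at CT24 to 7.76 at CT30, with a median of 7.29. Its wave was 1.21-fold (95% interval 1.08 to 1.34) with a peak at CT8.41 ± 1.08 h and a limma adjusted p of 0.0273, with overlap of peak and trough arrays. The sixth early gene was Slc22a20, with 1.12-fold at CT9.48 and an adjusted p of 0.040. Without the liver array of CT34 neither Slc22a13 (adjusted p = 0.0531) nor Slc22a20 (0.069) was called.

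The late liver set was led by Slc22a15, a carrier of zwitterions such as ergothioneine. It ran from 7.0 at CT58 to 8.15 at CT26, with a median of 7.87. Its highest arrays fell at CT22, CT26 and CT42 to CT48 and its lowest at CT32 to CT36 and CT56 to CT60, with no overlap of peak and trough arrays. The wave was 1.69-fold (95% interval 1.49 to 1.92) with a peak at CT22.4 ± 0.439 h and a limma adjusted p of 1.36e-06, the largest of any transporter in any tissue among the called ones. Slco2a1 ran from 10.72 at CT58 to 11.35 at CT46, with a median of 11.06, equally without overlap, and its wave was 1.39-fold (95% interval 1.3 to 1.49) with a peak at CT22.2 ± 0.39 h and a limma adjusted p of 2.10e-07. Slco2b1 ran from 10.45 at CT56 to 10.90 at CT28, with a median of 10.77, a wave of 1.21-fold (95% interval 1.14 to 1.29) with a peak at CT21.9 ± 0.618 h and a limma adjusted p of 0.000149 without overlap. Slco3a1 (1.16-fold at CT18.2, adjusted p = 0.00538) and the orphan Slc22a18 (1.14-fold at CT22.2, 0.00768) completed it. Slco1a1, the gene farthest above its own median over the 12 tissues in liver, had 1.08-fold and an adjusted p of 0.0555, and the anion transporter Slc22a7 1.23-fold and 0.282. The median fold of the called transporters was 1.21 against 1.23 for all called liver genes.

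Whether the waves of kidney and liver differ was tested for each gene in 1 limma fit to all 288 arrays, as the difference of both wave coefficients. After adjustment over all genes 6 transporters differed, where 15.6% of all genes did, a share near the background. An unadjusted p under 0.05 was found for 10, a count given without its background. Slc22a15 had the smallest adjusted p (8.73e-14): 1.69-fold in liver and 1.06-fold in kidney, where its own wave did not pass (adjusted p = 0.576). Slco2b1 (7.75e-06) and Slco2a1 (0.00253) were called in both organs and peaked 6.51 ± 0.759 h and 10.1 ± 1.01 h apart. Both Slco2 genes thus peaked earlier in the cycle in kidney than in liver. Slco1a4 (0.00439) and Slc22a23 (0.016) had a called wave in liver alone of the 2 organs, and Slc22a4 (0.0242) in kidney alone. The Slc22a4 difference was not called without the arrays that stand apart (adjusted p = 0.0633), and with normal scores neither it nor the Slco1a4 difference was (0.086 for Slco1a4). Of the 2 other genes called in both organs, Slco1a6 peaked 5.92 ± 1.46 h apart (adjusted p = 0.19) and Slco3a1 4.19 ± 1.06 h apart (0.299), neither past the threshold. Both were called as different with the time point as a block and with the kidney and liver arrays alone.

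**Figure D4:**
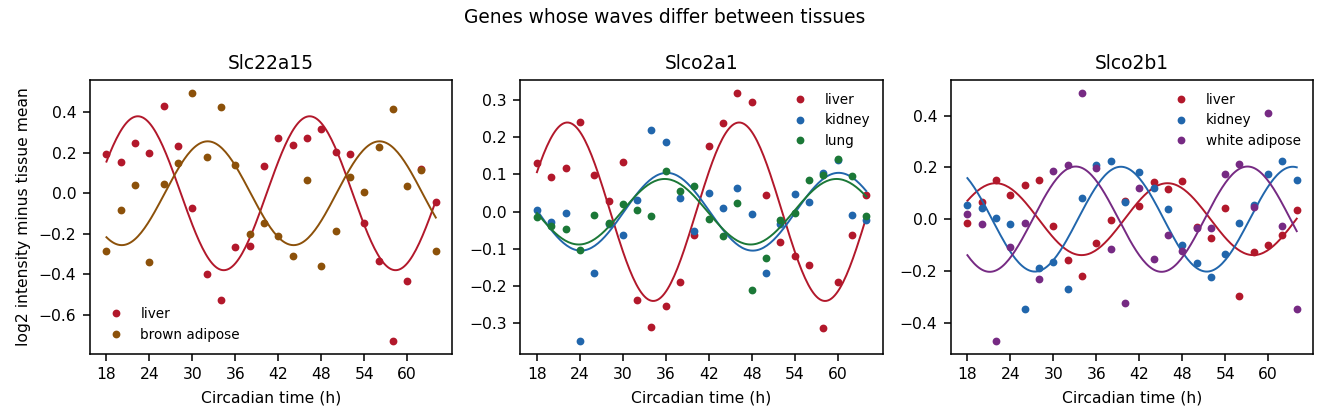
Log2 intensity minus the tissue mean (vertical axes) against circadian time in hours (horizontal axes) for Slc22a15, Slco2a1 and Slco2b1. Points are single pools and lines the fitted 24 h waves; liver (red) peaks near CT22 in each panel, 9.75 ± 0.826 h from brown adipose for Slc22a15, 10.4 ± 0.736 h from lung for Slco2a1 and 11.2 ± 1.13 h from white adipose for Slco2b1.

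Over all 12 tissues 16 transporters had different waves, where 49.6% of all genes did. For the 15 genes called in 2 or more tissues, the pairs of tissues were then tested, a comparison added after the waves were known. There were 44 such pairs, and 16 differed with a limma adjusted p under 0.05 over all genes of the pair, where between 2.03% and 26.7% of all genes differed by pair. In 6 of the 44 pairs the fitted peaks lay more than 8 h apart.

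Slc22a5, which brings carnitine into cells for fatty acid oxidation, had its largest waves in brown adipose and aorta. In brown adipose it ran from 8.53 at CT24 to 9.60 at CT58, with a median of 8.98. The 6 arrays near the peak were all above the 6 near the trough, and the wave was 1.65-fold (95% interval 1.45 to 1.87) with a peak at CT8.81 ± 0.472 h and a limma adjusted p of 8.89e-06. In aorta it ran from 7.66 at CT46 to 8.93 at CT32, with a median of 8.43, again with no overlap, a wave of 1.52-fold (95% interval 1.31 to 1.77) with a peak at CT7.86 ± 0.666 h and a limma adjusted p of 0.00199. Both exceeded the kidney wave, with a difference at adjusted p = 0.000677 for brown adipose (background 13.2%) and 0.00899 for aorta (7.21%), while aorta against brown adipose did not pass (0.63, background 5.2%). The nearby genes peaked at similar hours: Slc22a4 in aorta had 1.23-fold at CT11.0 and Slc22a21 in brown adipose 1.22-fold at CT7.86.

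Slc22a15 also cycled in brown adipose, at another time of day than in liver. Its values there ran from 7.19 at CT48 to 8.04 at CT30, with a median of 7.59. The wave was 1.43-fold (95% interval 1.25 to 1.63) with a peak at CT8.14 ± 0.70 h and a limma adjusted p of 0.0012, 9.75 ± 0.826 h from the liver peak, a difference with an adjusted p of 8.58e-27 where 24.6% of all genes differed. Brown adipose also had Slco5a1 (1.54-fold at CT20.5, at a low level), Slc22a2 (1.33-fold at CT11.3) and Slco3a1 (1.17-fold at CT18.1). In these arrays the skeletal muscle markers (12 of 12 measured) ran from 6.62 to 11.79, fitted peak CT23.0, and Slco5a1 is highest in skeletal muscle. With their mean as a covariate the Slco5a1 wave was 1.32-fold (adjusted p = 0.0117), and Slc22a2 (0.19), Slco3a1 (0.0838) and Slc22a21 (0.0504) were not called. Fibroblast markers (8 of 8) peaked there at CT21.4, and with them as a covariate Slco5a1 was not called (0.204). Of the 6 waves, Slc22a5 (4.72e-05) and Slc22a15 (0.000267) were the 2 still called with this covariate.

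Slco5a1 had a second wave in heart, where it ran from 7.31 at CT26 to 7.97 at CT40, with a median of 7.72. Its highest arrays fell at CT38 to CT40 and CT58 to CT64 and its lowest at CT22 to CT28 and CT48 to CT50, with no overlap of peak and trough arrays. The wave was 1.34-fold (95% interval 1.25 to 1.45) with a peak at CT13.8 ± 0.472 h and a limma adjusted p of 7.81e-06, 6.78 ± 0.884 h from its brown adipose peak (adjusted p of the difference 2.54e-13, background 14.4%). The lowest value is that of the CT26 array with hepatocyte markers, and without the heart arrays that stand apart the wave was 1.3-fold (adjusted p = 8.92e-05). Slco3a1 followed in heart with 1.31-fold at CT18.1 (adjusted p = 4.64e-07) and Slco2b1 with 1.17-fold at CT16.9 (0.0337).

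The lung wave with the largest fold was that of Slco4c1. It ran from 8.50 at CT38 to 9.27 at CT50, with a median of 8.89. Its lowest arrays fell at CT32 to CT34, CT38 to CT40 and CT58 to CT60 and its 3 highest at CT50, CT52 and CT20, without overlap of peak and trough arrays, and the wave was 1.23-fold (95% interval 1.12 to 1.34) with a peak at CT0.0108 ± 0.826 h and a limma adjusted p of 0.00408. Slco2a1, highest in lung by level, had 1.13-fold at CT11.8. That peak lay 10.4 ± 0.736 h from the liver one (adjusted p of the difference 0.00347, background 20.7%) and 0.295 ± 1.12 h from the kidney one (0.996, 5.59%). The other lung calls were Slco2b1 (1.2-fold at CT13.2), Slc22a22 (1.16-fold at CT15.3, at a low level), Slco3a1 (1.12-fold at CT16.2) and Slc22a23 (1.07-fold at CT7.08). The Slc22a23 waves of lung and skeletal muscle did not differ past the threshold (0.386, background 8.03%).

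Brainstem had 5 calls. Slco3a1 was lost in 5 of 12 settings, Slco1a4 in 3 of 12 and Slc22a2 in 3 of 11. Slc22a6 and Slc22a8 were each lost in 1. Slc22a6 ran from 6.72 at CT44 to 7.27 at CT36, with a median of 7.09, with overlap of peak and trough arrays, and its wave was 1.25-fold (95% interval 1.14 to 1.36) with a peak at CT10.3 ± 0.766 h and a limma adjusted p of 0.00684. Slc22a8 (1.22-fold at CT11.2), Slc22a2 (1.18-fold at CT10.8, at a low level) and Slco1a4 (1.12-fold at CT11.8) peaked within the same hours, and Slco3a1 at CT22.2. Markers of meninges and fibroblasts (8 of 8) peaked at similar hours to the first 4 of these. Their mean ran from 7.74 to 8.16, a fitted 1.18-fold with a peak at CT12.1. With this mean as a covariate none of the 5 was called (limma adjusted p between 0.136 and 0.679), whereas with the choroid plexus mean (7 of 8 measured) Slc22a6, Slc22a8 and Slco3a1 were.

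In cerebellum Slco1c1 ran from 8.57 at CT62 to 8.97 at CT26, with a median of 8.80, a wave of 1.15-fold (95% interval 1.08 to 1.22) with a peak at CT3.83 ± 0.836 h and a limma adjusted p of 0.0138 whose peak arrays all lay above the trough arrays. Slc22a17 had 1.11-fold at CT8.66 (adjusted p = 0.00233). Choroid plexus markers in cerebellum had a fitted 1.38-fold with a peak at CT6.43, and with their mean as a covariate Slco1c1 was not called (0.0784) and Slc22a17 was (0.0101).

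The single call in skeletal muscle was Slc22a23. It ran from 8.05 at CT60 to 8.64 at CT28, with a median of 8.30, a wave of 1.23-fold (95% interval 1.11 to 1.37) with a peak at CT3.39 ± 0.933 h and a limma adjusted p of 0.0343, 7.1 ± 1.07 h from its liver peak (adjusted p of the difference 0.000358, background 22.2%). Without the arrays that stand apart its adjusted p was 0.0537, and with the adipocyte mean as a covariate 0.0587. The single call in white adipose was Slco2b1, which ran from 8.83 at CT22 to 9.79 at CT34, with a median of 9.28, a wave of 1.33-fold (95% interval 1.15 to 1.53) with a peak at CT9.12 ± 0.95 h and a limma adjusted p of 0.0454. That call was lost in 7 of 12 settings, among them the one without the arrays that stand apart (0.123).

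**Figure D5:**
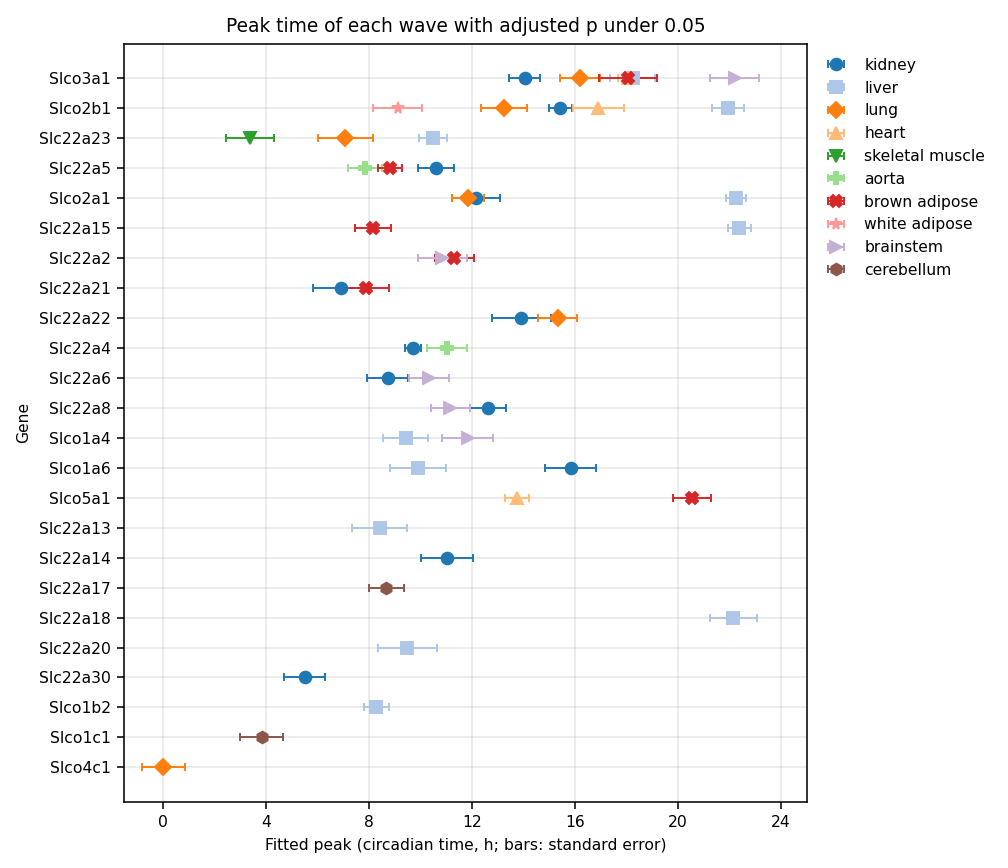
Fitted peak in circadian hours (horizontal axis) of every called wave, by gene (vertical axis) and tissue (marker colour and shape), with bars of 1 standard error. Genes are ordered by the number of tissues; the Slco2b1 row runs from CT9.12 in white adipose to CT21.9 in liver, while the 3 peaks of Slc22a5 lie between CT7.86 and CT10.6.

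Slco2b1 and Slco3a1 were the transporters called in most tissues, 5 and 6. The peaks of Slco2b1 were spread from CT9.12 in white adipose over CT13.2 in lung, CT15.4 in kidney and CT16.9 in heart to CT21.9 in liver. Liver differed from each of the other four: white adipose (adjusted p = 8.27e-10), kidney (7.75e-06), lung (2.72e-05) and heart (0.0235). The white adipose tests were not repeated without its arrays that stand apart. White adipose also differed from kidney (3.88e-07), heart (5.56e-06) and lung (0.00766). Kidney, lung and heart did not differ from each other past the threshold, with peak gaps of 2.19 ± 0.991 h for kidney and lung and 1.47 ± 1.08 h for heart and kidney and 3.66 ± 1.33 h for heart and lung (backgrounds 5.59%, 6.05% and, for heart and lung, 4.86%). The peaks of Slco3a1 lay between CT14.1 in kidney and CT22.2 in brainstem, and of its 15 pairs heart against kidney (0.0315) and brainstem against heart (0.0487, 2.03%) differed. Brainstem against kidney (0.33, 2.73%) and against lung (0.65, 2.51%) did not pass, although the peaks lay 8.16 ± 1.13 h and 6.02 ± 1.23 h apart.

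No wave was called in any tissue for 13 transporters: Slc22a7, Slc22a12, Slc22a16, Slc22a19, Slc22a26, Slc22a27, Slc22a29, Slco1a1, Slco1a5, Slco4a1 and the 3 Slco6 genes. They include Slc22a19 and Slco1a1, which stood farthest above their own medians over the 12 tissues in kidney and in liver. In simulated data of the same spread, 52% of 1.2-fold waves were found in kidney and 42% in liver, and 100% and 92% of 1.5-fold waves, so small waves of these genes may not have been detectable.

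The proteins that work beside these transporters were counted from lists of 47 measured genes, of which 26 had a called wave in kidney, where 25.8% of all genes did, and 25 in liver, where 26.8% did. The lists were chosen with earlier results of these data known, so counts above these shares are not read as a trait of the listed genes. The lists are also small, and some counts below, such as that of the ABC pumps in kidney, are near these shares. Carriers that set the dicarboxylate gradient driving organic anion exchange or that move urate gave 4 of 5 in kidney, led by Slc2a9 (1.43-fold with a peak at CT10.5) and Slc13a2 (1.34-fold with a peak at CT13.1), and 5 of 5 in liver, led by Slc13a2 (2.34-fold with a peak at CT21.1) and Slc17a3 (1.95-fold with a peak at CT20.0). Enzymes and carriers of carnitine use gave 5 of 5 in kidney, led by Bbox1 (1.35-fold with a peak at CT9.79), which makes carnitine, and Slc25a20 (1.32-fold with a peak at CT14.1), and 4 of 5 in liver, led by Crat (1.62-fold with a peak at CT19.7) and Cpt1a (1.51-fold with a peak at CT9.26). The 5 kidney peaks lay between CT8.78 and CT14.1, with that of Slc22a5 at CT10.6. Bile acid carriers gave 3 of 4 in kidney, led by Slc10a2 (1.95-fold with a peak at CT21.7) and Slc51a (1.4-fold with a peak at CT10.7), and 2 of 4 in liver, Slc10a2 (1.93-fold with a peak at CT16.9) and Slc51b (1.29-fold with a peak at CT21.0).

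ABC efflux pumps, which export what these carriers bring in, gave 3 of 11 in kidney, led by Abcg2 (1.12-fold with a peak at CT1.51) and Abcc1 (1.12-fold with a peak at CT7.72), and 5 of 11 in liver, led by the drug pump Abcb1a (1.57-fold with a peak at CT12.4) and the bile salt pump Abcb11 (1.48-fold with a peak at CT0.482). The apical cation exchangers gave 0 of 3 in kidney, with an unadjusted limma p under 0.05 for 0 of them, and 1 of 3 in liver, Slc47a1 (1.17-fold with a peak at CT20.2). Scaffolds that hold transporters at the membrane gave 3 of 4 in kidney, led by Slc9a3r2 (1.26-fold with a peak at CT15.8) and Slc9a3r1 (1.16-fold with a peak at CT12.7), and 1 of 4 in liver, Slc9a3r1 (1.31-fold with a peak at CT14.0). Thyroid hormone handling gave 2 of 5 in each organ: Slc7a8 (1.27-fold with a peak at CT22.9) and Slc16a10 (1.19-fold with a peak at CT22.8) in kidney, Dio1 (1.36-fold with a peak at CT14.3) and Slc7a8 (1.32-fold with a peak at CT0.0704) in liver. Prostaglandin handling gave 3 of 4 in kidney, led by the degrading enzyme Hpgd (1.26-fold with a peak at CT23.1) and Ptges (1.21-fold with a peak at CT20.8), and 1 of 4 in liver, Ptgr1 (1.19-fold with a peak at CT21.6). Among 6 transcription factors that act on transporter genes, 3 passed in kidney, led by Nr1h4 (1.29-fold with a peak at CT8.61) and Ppara (1.26-fold with a peak at CT9.71), and 4 in liver, led by Ppara (1.49-fold with a peak at CT10.1) and Nr1i3 (1.35-fold with a peak at CT11.4). For scale, all 13 measured clock genes passed in both organs, with a median fold of 3.33 in kidney and 4.09 in liver, where the largest transporter wave was 1.69-fold.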

How the data were processed

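The deposited table of 288 arrays holds linear intensity values, which the authors made with Affymetrix Expression Console and GCRMA per the submitters' processing notes, with no version or order stated. Per the labels' protocols, Trizol and spin columns gave the RNA, pooled from 3 mice. Of 35556 probe sets, 21789 carried 1 symbol, 1621 several and 12146 none in GEO's platform annotation, which can be old, and the one with the highest mean stood for its gene, which gave 19938 genes. Values were taken to log2 with no pseudocount. The plan had assumed log2 values. Arrays of a tissue had like value distributions that differed from other tissues, so waves were fitted within tissues.

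Waves of 24 h were fitted with limma 3.58.1 in R 4.3.3 (moderated F test with trend, Benjamini-Hochberg adjustment over all genes of a tissue). The fits were tested on simulated data. The kidney against liver test was simulated with kidney and liver arrays alone, not in the fit to all arrays used for the results. In that simulation 20% of 1.2-fold and 86% of 1.5-fold differences were found, and about 6% of calls were false. On the real data the fit to all arrays called 15.6% of genes, and that to kidney and liver arrays alone 20.2%. These simulated rates therefore do not give those of the fit to all arrays, which was not simulated. Differences between tissues were tested in 1 fit to all arrays (22 interaction coefficients, or 2 contrasts for a pair). An array stood apart where a marker list's mean differed from its tissue's median by over 1 log2 unit and 5 scaled median absolute deviations, or where its correlation with the others was lower by over 0.003 and 5 deviations. Positions and promoters come from RefSeq, build GRCm38.p6. The members and lists were chosen with earlier results of these data known.

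Full values are given for the 8 called members with the largest fold in kidney and in liver and the largest in each other tissue, and as levels for the member farthest from its median in each tissue. Of each pathway list the 2 called genes with the largest fold per organ are named. Alternatives were no trend, array weights, a filter on dim probe sets, a pseudocount of 32, the mean of probe sets, a line over time, leaving out arrays that stand apart, normal scores, quantile normalization, marker means as covariates, each day alone, kidney and liver arrays alone, and the time point as a block. The adipocyte, fibroblast and choroid plexus covariates and the tests of tissue pairs were added after seeing the data. The number of arrays limits the precision.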

Additional observations from a re-analysis of the deposited data

Results flagged for a closer look

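Over all 12 tissues 16 transporters had different waves (background 49.6%). In the limma tests of kidney against liver and of tissue pairs, 9 transporters differed, with p adjusted over all genes. The share of all genes was 15.6% for kidney and liver and between 2.03% and 26.7% by pair. The pairs were picked after the waves were known. Between kidney and liver the transporters that differed were Slc22a15 (8.73e-14), Slco2b1 (7.75e-06), Slco2a1 (0.00253), Slco1a4 (0.00439), Slc22a23 (0.016) and Slc22a4 (0.0242).

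Between tissues in which a member was called in both, Slc22a15 differed for brown adipose against liver (8.58e-27) and Slco5a1 for brown adipose against heart (2.54e-13). Slco2a1 differed for liver against lung (0.00347), and Slc22a23 for liver against skeletal muscle (0.000358). Slco2b1 in white adipose differed from liver (8.27e-10), kidney (3.88e-07), heart (5.56e-06) and lung (0.00766), and in liver it differed from lung (2.72e-05) and heart (0.0235). Slc22a5 in kidney differed from brown adipose (0.000677) and aorta (0.00899). Slco3a1 in heart differed from kidney (0.0315) and brainstem (0.0487), the second close to the threshold.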

How the results depend on the processing

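Of the 49 called waves, 25 were called under every planned setting that used both days and 24 were lost under at least 1. On the first day alone 16 of the 49 calls were kept. The counts, with calls gained, were then 6 in kidney, 4 in liver and 7 in the other tissues. On the second day alone 17 were kept and the counts were 3, 8 and 9. These settings used 12 arrays a tissue, and their shares over all genes are not given. With normal scores the other tissues had 13 calls against 26, also without a share over all genes, and the cause was not tested. The count of transporters with different waves in kidney and liver was 6 (background 15.6%). It was 11 with the pseudocount (17.4%), 10 with the kidney and liver arrays alone (20.2%) and 10 with the replicate block (time point, 22.3%). The share of all genes rose too in these 3 settings, and each included the same 6 genes. Without the arrays that stand apart (15.2%) and with quantile normalization (13.8%) it was 5, without Slc22a4. With normal scores (8.76%) it was 7, which shared 4 of the 6. Residuals of kidney and liver arrays of the same time correlated between -0.336 and 0.466 (median 0.140). Each correlation was taken across genes at 1 time, so it cannot decide whether the values of a gene were paired by time. With array weights 25 transporters differed over the 12 tissues against 16, and the share of all genes with these weights is not given. Of the levels, Slco1c1 in kidney minus liver turned from -0.33 to 0.0879 log2 after quantile normalization, which changes the scale of both organs. No called wave moved its peak by over 6 h under the planned settings. Waves of about 1.2-fold are near the limit of 24 arrays.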

Other observations

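A further probe set is shared by Slc22a28, Slc22a29 and Slc22a30 and names no single gene. It read 12.09 ± 0.09 (SD, n = 24 arrays) in liver and 12.0 ± 0.07 in kidney, with overlapping arrays. The next tissue was the adrenal gland with 6.25 ± 1.25. Its highest adrenal array stood at 9.38 and its lowest at 4.55.

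The adrenal fits gave large folds for transporters of liver that did not pass the threshold. Slco1b2 had a fitted 4.61-fold with a peak at CT5.38 (limma adjusted p = 0.155), Slco1a1 3.55-fold at CT5.15 (0.242) and Slc22a30 3.08-fold at CT5.0 (0.244). The hepatocyte marker mean of the same arrays ran from 6.16 to 12.30, a fitted 4.68-fold with a peak at CT5.92.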
